A study of Homo sapiens with 2 samples.

Results

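The hepatocyte lineage transcription factors named for this comparison were HNF4A, FOXA1, FOXA2, FOXA3, CEBPA, CEBPB, ONECUT1 and PROX1. They were chosen by name, each through a transcript cluster (the array's unit of measurement, a set of probes for 1 locus) that the platform annotation assigns to that gene symbol alone. Of the 8 genes, 7 were matched, each by 1 cluster, among 33616 genes with a symbol of their own. No cluster was matched to HNF4A, which is not analysed here. The cells were Hep3B, an established human hepatocellular carcinoma line. A SOX4-/- line, edited with CRISPR/Cas9, was compared with its parental line on 1 array each, and RNA was taken from both at 80% confluence. Puromycin, at 1 µg/ml, was added to the medium of the knockout line and not to that of the parental line, so genotype, puromycin, passage through selection and array cannot be told apart. The labels do not say whether the knockout line was 1 clone.

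Hepatocyte identity is held by a small group of transcription factors that bind each other's genes and the same liver enhancers. FOXA proteins are forkhead pioneer factors that open chromatin in the endoderm before liver genes are active, C/EBP proteins are leucine zipper factors that drive metabolic and acute-phase genes, ONECUT1 (also called HNF6) is a cut-homeodomain factor of the early liver and bile duct, and PROX1 is a homeodomain factor of hepatoblasts and of lymphatic endothelium. SOX4, the targeted gene, belongs to the SOX family of developmental regulators and is often raised in liver tumours. The comparison asks whether the lineage factors stood at other levels without SOX4.

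With 1 array per genotype there was no spread between replicates, so nothing was tested, and "higher" and "lower" describe these arrays only. Values are log2 as deposited, and differences are knockout minus parental. In whole-culture RNA, fewer cells of a type and less RNA per cell cannot be told apart. SOX4 itself was measured at 12.44 in knockout and 13.14 in parental cells (-0.70), so these arrays show a lower transcript level but not, by themselves, the loss of SOX4. Hepatocyte markers were read for the liver origin of the cells, though they cannot tell Hep3B from another liver line. Of 18 measured, 17 lay above the level filter, the median over genes of the higher of both values (4.78). By that definition 16808 of the 33616 genes lay above it. Albumin (ALB) stood at 18.84 in knockout and 18.87 in parental cells. The highest values, 19.80 and 19.82, exceed the bits of a usual scanner, 16, so folds hold on the deposited scale only. Precision is limited by the number of arrays.

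The promoters of the lineage factors with the lowest difference (CEBPA), the highest difference (FOXA3) and the only match to a SOX motif (FOXA1) are shown, as the 250 bases before the transcript start in RefSeq on GRCh38.p14, written 5′ to 3′ on the gene's own strand. Capitals mark matches on either strand to any of 7 motifs, namely SOX (AACAAAG), forkhead (TGTTTNC), C/EBP (TTGCNNAA), ONECUT (ATCAAT), HNF4 (CAAAGTCCA), the GC box (GGGCGG) and the TATA box (TATAAA).
CEBPA (chr19:33302535-33302784, minus strand): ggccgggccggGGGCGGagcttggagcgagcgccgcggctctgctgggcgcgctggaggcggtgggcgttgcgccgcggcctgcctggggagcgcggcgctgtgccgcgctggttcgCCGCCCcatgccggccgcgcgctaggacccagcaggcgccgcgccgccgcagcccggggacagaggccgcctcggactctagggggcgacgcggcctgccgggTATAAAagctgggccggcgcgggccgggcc
FOXA3 (chr19:45864076-45864325, plus strand): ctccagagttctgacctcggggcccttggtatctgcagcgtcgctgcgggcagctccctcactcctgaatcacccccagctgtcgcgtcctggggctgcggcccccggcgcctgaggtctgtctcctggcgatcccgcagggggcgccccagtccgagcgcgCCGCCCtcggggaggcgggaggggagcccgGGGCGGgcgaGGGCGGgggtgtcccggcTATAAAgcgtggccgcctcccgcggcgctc
FOXA1 (chr14:37595250-37595499, minus strand): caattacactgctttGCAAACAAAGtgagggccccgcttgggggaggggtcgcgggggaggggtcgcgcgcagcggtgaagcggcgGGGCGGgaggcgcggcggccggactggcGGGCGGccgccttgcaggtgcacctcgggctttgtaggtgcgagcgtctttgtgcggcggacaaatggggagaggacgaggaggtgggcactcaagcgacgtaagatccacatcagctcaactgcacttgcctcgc

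RefSeq promoters were matched for 5 of the 7 measured factors, the others with a match being ONECUT1 and CEBPB. The CEBPA promoter held 81.2% G and C bases and that of FOXA3 75.2%, against a median of 58% over 35116 promoters of the same length. Both had a TATA box whose first base lay 30 bases before the start, a motif found in 10.7% of all promoters, and both had GC boxes, found in 42.6%. The FOXA1 promoter had the SOX motif from 232 to 226 bases before the start, which overlapped a forkhead match on the opposite strand from 235 to 229. That SOX motif occurred in 4.50% of all promoters and the forkhead motif in 15.5%. The C/EBP, ONECUT and HNF4 motifs, present in 9.05%, 5.58% and 0.325% of all promoters, were not matched in any of the windows of the 5 factors. These matches describe letters and not binding.

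CEBPA was the lineage factor with the largest difference, and the other 6 differed from their parental values by at most 0.27. None of the 7 was at least 2-fold apart, the size used here as a call. Over all 16808 genes above the level filter, 6.5% were higher and 3.64% lower by 2-fold or more, 10.1% in all. Among the 11115 of them that code for proteins the share was 12.6%, so a count of 0 of 7 does not set the factors apart. At 1.5-fold, 1 of the 7, CEBPA, was lower, where 11.6% of those protein-coding genes were. The median difference of the 7 was -0.22, beside 0.06 over the protein-coding genes above the filter. Of the 7 factors, 5 were below their parental value, as were 45% of these protein-coding genes.

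**Figure D1:**
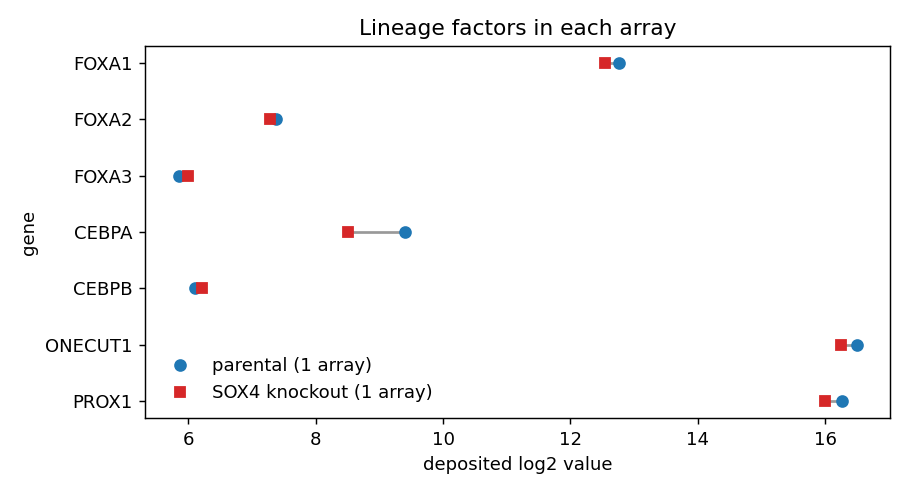
Deposited log2 value (horizontal axis) of each of the 7 measured lineage factors, with a circle for the parental array and a square for the SOX4 knockout array, 1 array each. The gap is widest for CEBPA, at 8.51 against 9.40, and levels of different genes cannot be compared, since each has its own probes.

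Of the C/EBP pair, CEBPA was lower and CEBPB nearly level. CEBPA encodes C/EBP-alpha, which drives metabolic genes of the mature hepatocyte and restrains division. Its value was 8.51 in knockout and 9.40 in parental cells, which is -0.89, or 1.86-fold lower. Among protein-coding genes above the filter, 1742 (15.7%) differed by more in either direction and 597 (5.37%) were lower by more. CEBPB encodes C/EBP-beta, which is induced in the acute-phase response and in regeneration. Its value was 6.21 in knockout and 6.10 in parental cells, 0.11 higher. The paralogs thus lay 1.00 log2 apart in their differences.

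The FOXA genes were close to their parental values. FOXA1 was measured at 12.54 in knockout and 12.76 in parental cells (-0.22). FOXA2, which acts in endoderm formation and, with FOXA1, at the onset of the liver in mouse, stood at 7.27 and 7.38, a difference of -0.11. FOXA3, a FOXA gene linked to glucose metabolism in mouse liver, stood at 5.99 and 5.85, a difference of 0.13. FOXA1 and FOXA2 were lower and FOXA3 higher, each by at most 1.16-fold, and from 66.9% to 83.0% of protein-coding genes above the filter differed by more than each of them.

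The homeodomain factors were a little lower. ONECUT1 was measured at 16.25 in knockout and 16.49 in parental cells (-0.25). PROX1 stood at 16.00 and 16.27, a difference of -0.27 or 1.21-fold lower, the largest among the 6 factors other than CEBPA. More than these, in either direction, was seen in 63.2% of protein-coding genes above the filter for ONECUT1 and in 60.5% for PROX1. Protein-coding genes above the filter were divided by mean level into 4 bands of like size. In the highest band, which held FOXA1, ONECUT1 and PROX1, 7.05% of genes were 2-fold apart, and the median size of the difference was 0.30. In the second lowest band, which held CEBPA and FOXA2, these values were 16.7% and 0.41, so the difference of CEBPA was above the median size of its band and that of FOXA2 below it.

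**Figure D2:**
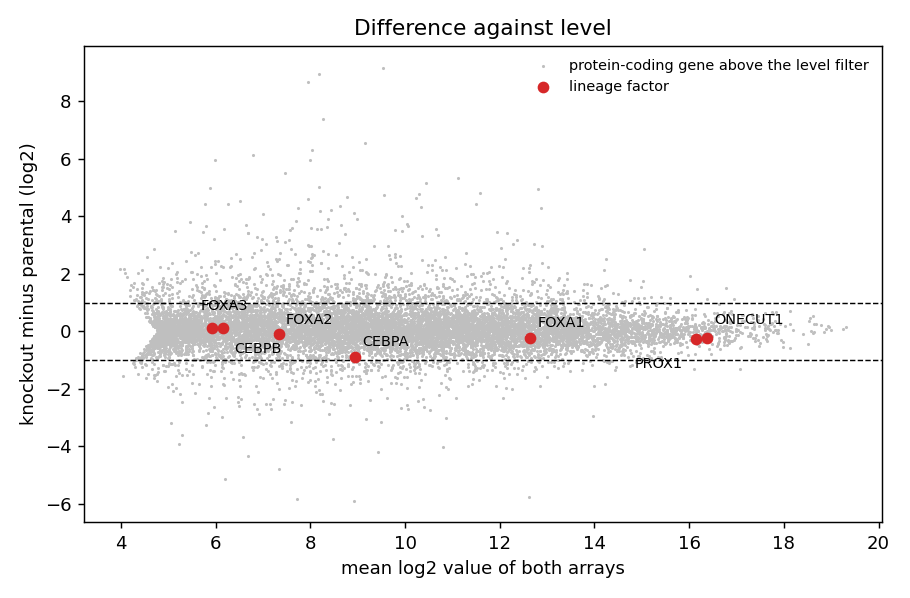
Difference, knockout minus parental in log2 (vertical axis), against the mean log2 value of both arrays (horizontal axis) for the 11115 protein-coding genes above the level filter (grey) and the 7 lineage factors (red), with dashed lines at 2-fold. All 7 factors lie between the lines, and CEBPA at -0.89 is nearest to one.

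By the rule that takes the nearest protein-coding genes over the values of both arrays, CEBPA was most like EPHB4, an ephrin receptor gene, at 8.53 against 9.35, and SNRPF, which encodes a core spliceosome protein, at 8.55 against 9.36. FOXA3, the member with the highest difference, was most like the neurexophilin gene NXPH4, at 5.98 against 5.87, and PEX6, which acts in peroxisome assembly, at 6.01 against 5.86. The likeness covers only 2 arrays, and distances were 0.02 to 0.06 log2.

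Neighbours on the chromosome were taken from the RefSeq gene order. Both nearest measured protein-coding neighbours of CEBPA were lower as well. SLC7A10, an amino acid transporter gene, stood at 5.10 against a parental 6.68, a difference of -1.58. On the other side lay CEBPG, a C/EBP family gene whose product pairs with ATF4 and other zipper proteins, with 13.02 against 13.77 and a difference of -0.75. Of the 10 nearest genes, 9 were below their parental value, with a median of -0.12, and 2 were lower by more than CEBPA, SLC7A10 and the RNA-binding protein gene LSM14A at -0.93. KCTD15 stood at -0.53, and the peptidase gene PEPD, next after CEBPG, was the 1 gene above its parental value, at 0.38. Of these 10 genes, 8 lay above the level filter. Among all protein-coding genes above the filter, 45% were below their parental value. Runs of 1 sign were seen elsewhere too, with 8 of 10 genes below around FOXA1 and 8 of 10 above around CEBPB. The windows of 10 genes and the genes named in them beyond the nearest were chosen after the values were seen.

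Around the other factors the nearest neighbours had differences from -0.58 to 0.20. Next to FOXA1, MIPOL1 stood at -0.33 and TTC6 at -0.46. Next to FOXA2, PAX1 stood at 0.06 and SSTR4 at -0.14, and beside FOXA3, SYMPK, a factor of mRNA 3′ end processing, stood at -0.11 and IRF2BP1 at 0.17. CEBPB lay between PEDS1 at 0.05 and the tyrosine phosphatase gene PTPN1 at 0.01. ONECUT1 had ATOSA at -0.58 and WDR72 at 0.20. PROX1 lay between the kinase-family gene RPS6KC1 at 0.06 and the methyltransferase gene SMYD2 at 0.08. Farther along, 3 of the 10 genes nearest to PROX1 were over 2-fold lower, where 3.64% of all genes above the filter were. They were VASH2 at -1.63, KCNK2 at -1.32 and the nuclear receptor gene ESRRG at -3.73, while PROX1 itself stood at -0.27. KCNK2, at 3.99 in knockout and 5.31 in parental cells, passed the filter by the parental array only. This window and these 3 genes were also chosen after the values were seen.

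**Figure D3:**
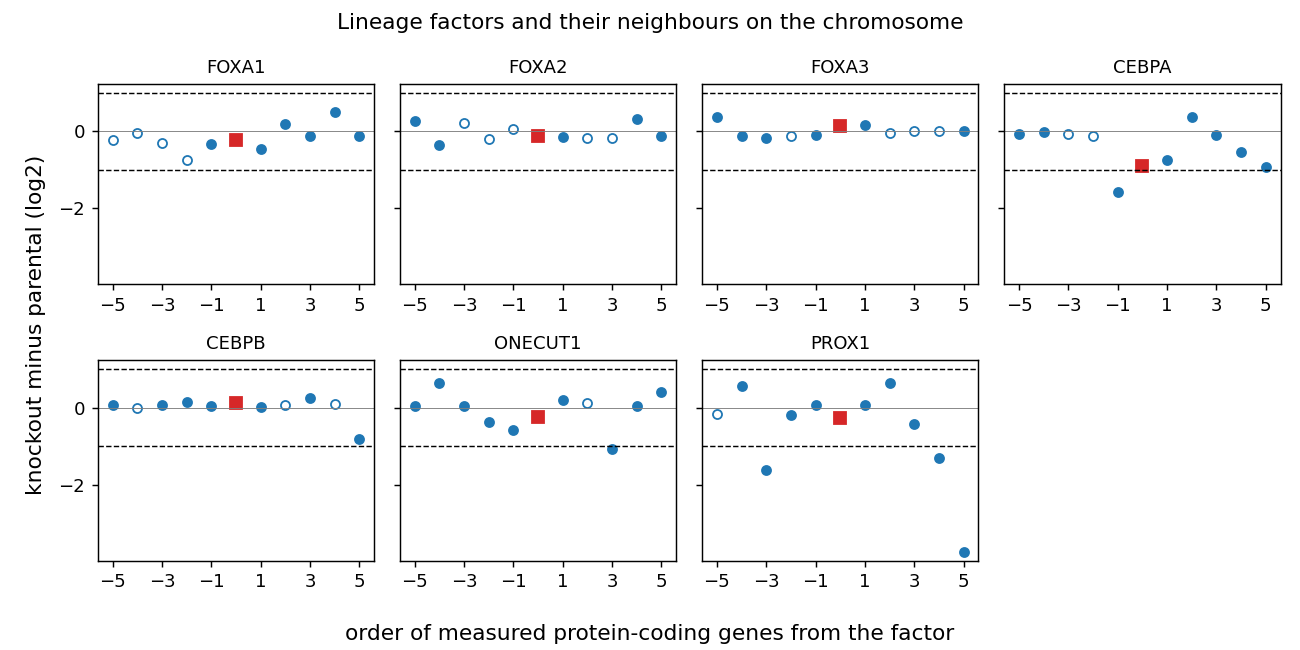
Difference, knockout minus parental in log2 (vertical axis), of each lineage factor (red square) and of the 5 measured protein-coding genes on each side of it (circles, open where under the level filter), placed by gene order and not by distance (horizontal axis), with dashed lines at 2-fold. SLC7A10, CEBPA and CEBPG are lower side by side, at -1.58, -0.89 and -0.75, and ESRRG at -3.73 is the lowest point of the PROX1 panel.

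Non-coding RNAs next to the factors did not all share the sign of the coding gene. LINC00261, a long non-coding RNA transcribed beside FOXA2, was measured at 11.75 in knockout and 12.29 in parental cells (-0.54), where FOXA2 was at -0.11. PROX1-AS1, which overlaps the start of PROX1 in RefSeq, was higher by the brighter of its 2 clusters. It stood at 8.43 against 7.96, a difference of 0.48 where PROX1 was at -0.27. CEBPA-DT and CEBPB-AS1 were dim, under the level filter throughout, with differences of 0.02 and -0.18, and HNF4A-AS1 stood at 5.62 against 5.81. None of these 5 RNAs was 2-fold apart, beside 5.30% of all genes without the level filter, and overlapping transcripts may share signal.

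Among family members and partners of the C/EBP proteins, none of the 8 listed genes, all measured, was 2-fold apart. The shares beside this are 5.30% of all genes without the level filter and 12.6% of protein-coding genes above it. Of the 5 listed genes above the level filter, 5 were below their parental value, as were 45% of all protein-coding genes above it. Under the filter CEBPD stood at 0.01 and CEBPE at 0.35. The median of the 8 was -0.30, and -0.50 over the 5. Besides CEBPG, the stress-induced C/EBP family gene DDIT3 stood at 6.46 against 7.03, a difference of -0.57, and COP1, a ubiquitin ligase that with Tribbles proteins directs C/EBP-alpha breakdown, at -0.19. The other 36 measured FOX genes had a median of -0.02, which was just above 0 under each change of scaling. Of them, 22 lay under the filter. The 14 above it had a median of -0.18, and 9 of these were below their parental value. None of the 36 was 2-fold apart, to be read beside the same shares of 5.30% and 12.6%. FOXN3, a forkhead repressor, was the lowest of them at 9.93 against 10.79 (-0.87). FOXP2 stood at -0.47 and FOXK1, a forkhead gene of glycolysis control, at 0.37. Of 6 measured paralogs of the cut and prospero kind, ONECUT2 stood at 10.89 against 11.34, a difference of -0.45, beside -0.25 for ONECUT1. CUX2 stood at 0.50, and the chromatin organiser gene SATB1 was at least 2-fold higher at 8.10 against 6.98 (1.12).

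Other transcription factors of the liver were mostly within 2-fold too. Of 17 measured, 15 exceeded the filter, and 2 of these were lower by 2-fold or more and none higher by that much. Over all genes above the filter, 3.64% were lower and 6.5% higher by that much. The median of the 17 liver factors was -0.12. NFIL3, a bZIP repressor of the circadian clock, stood at 11.52 against 12.80 (-1.27), and CREB3L3, which controls liver lipid and acute-phase genes, at 3.82 against 5.05 (-1.23), a knockout value under the filter. PPARA, the fatty acid sensing receptor, was the highest of them at 7.22 against 6.35 (0.87). Cofactors went both ways. Of 12 above the filter, 2 were higher and 1 was lower by 2-fold or more, beside 12.6% of protein-coding genes in either direction. The median over 13 cofactors measured was -0.35. The Groucho family genes TLE3 and TLE4, whose products are corepressors that can bind FOXA proteins, stood at opposite ends. TLE3, by the brighter of its 2 clusters, stood at 7.59 against 5.77 (1.82), and TLE4 at 7.75 against 9.14 (-1.39). NCOA1, a coactivator of nuclear receptors named after its value was seen, was the other higher one, at 8.11 against 6.87 (1.24).

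**Figure D4:**
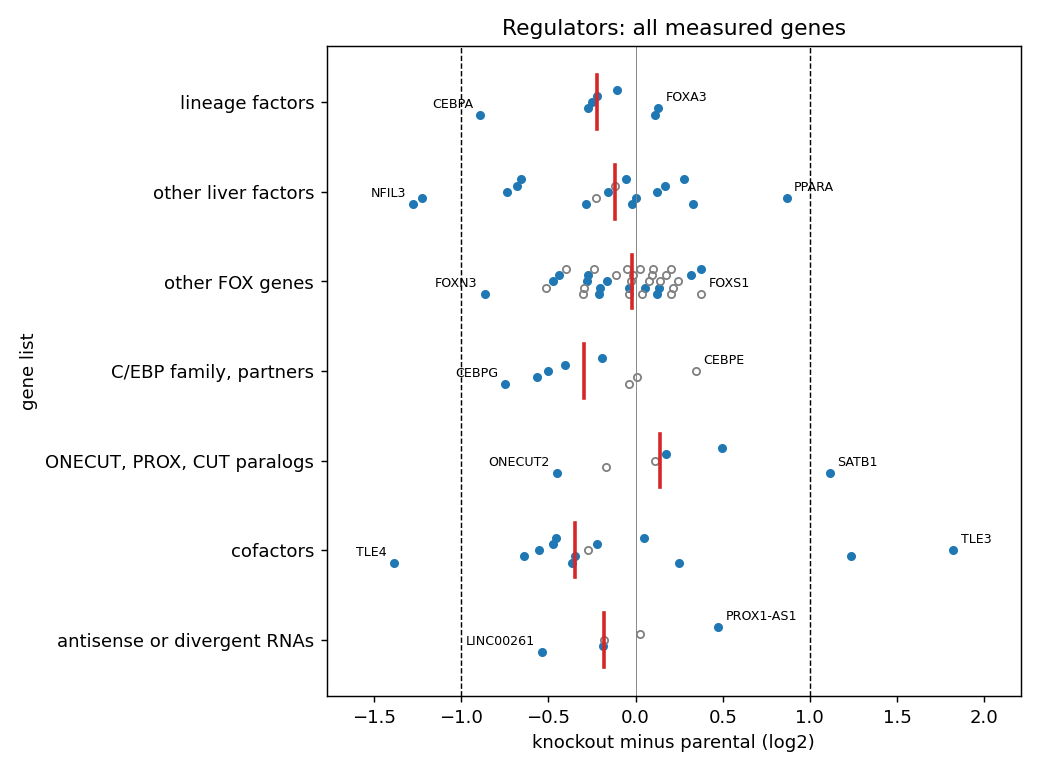
Difference, knockout minus parental in log2 (horizontal axis), of each measured gene in 7 lists of regulators (rows; filled points above and open points under the level filter, red bars at list medians, dashed lines at 2-fold, vertical scatter only to separate points). The lineage factors all lie inside 2-fold, and TLE4 at -1.39 and TLE3 at 1.82 are the outermost points.

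Genes known to be bound and driven by the factors were divided. These target lists share members and were compiled from general knowledge. The calls in them are read only against the shares above. Over all genes above the filter, 3.64% were lower and 6.5% higher by 2-fold or more, 10.1% in all. Among protein-coding genes above it the share was 12.6% in either direction. The HNF4 targets, nearly all liver secretory and metabolic genes, had 2 members higher and 1 lower by 2-fold or more among 17 above the filter, with a median of 0.15 over 21 measured. MTTP, which loads lipid on apolipoprotein B, stood at 14.13 against 12.71 (1.42), and APOA1, the main protein of high-density lipoprotein, at 11.27 against 12.44 (-1.17). Of 9 FOXA targets above the filter, 3 were lower and 1 was higher by 2-fold or more, with a median of -0.03 over 11 measured (0.00 with median-centred arrays). AFP, the fetal serum protein, stood at 9.73 against 15.50 (-5.77), CPS1, which starts the urea cycle, at 7.31 against 11.52 (-4.21), and IGFBP1, a secreted binder of insulin-like growth factors, at 9.34 against 5.82 (3.52). Whether the FOXA proteins had a part in these differences was not tested.

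For C/EBP targets, 2 of 13 above the filter were lower by 2-fold or more and none was higher by that much, with a median of -0.19 over 19 measured. Besides CPS1, which is also a C/EBP target, HAMP, the iron hormone hepcidin, stood at 7.19 against 8.53 (-1.34), whereas the chemokine gene CXCL8 was the highest member at 13.07 against 12.17 (0.90). Of the ONECUT1 targets 7 were measured and 3 lay above the filter, FOXA2 among them. SLC2A2, the glucose transporter of hepatocytes, stood at 7.40 against 8.47 (-1.07), and the thyroid hormone carrier gene TTR at 14.40 against 15.14 (-0.75).

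Markers of cell types were set beside these values. Of 17 hepatocyte markers above the filter, APOA1 alone was 2-fold apart, beside 12.6% of all protein-coding genes above it. So low a count does not set the markers apart. The receptor gene ASGR1 was highest at 9.62 against 8.65 (0.98), and the median over the 18 markers measured was -0.05. The log2 of their summed linear values was 21.56 in knockout and 21.59 in parental cells. Of 8 cholangiocyte markers above the filter, 2 were higher by 2-fold or more, SPP1, which encodes osteopontin, at 7.77 against 5.25 (2.52) and GGT1 at 7.12 against 5.91 (1.21), and none was lower by that much. Of the 8, 6 were higher, with a median of 0.59, and over 11 measured the median was 0.11. Over all genes above the filter, 6.5% were higher by 2-fold or more. Of the protein-coding genes above it, 45% were below their parental value, with a median of 0.06. EPCAM, the epithelial adhesion marker, was the lowest of the 8 at 16.40 against 16.80 (-0.41). The summed cholangiocyte level, which the brightest probes set, was 18.27 against 18.37, and the part of such markers in the values of the lineage factors was not tested.

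**Figure D5:**
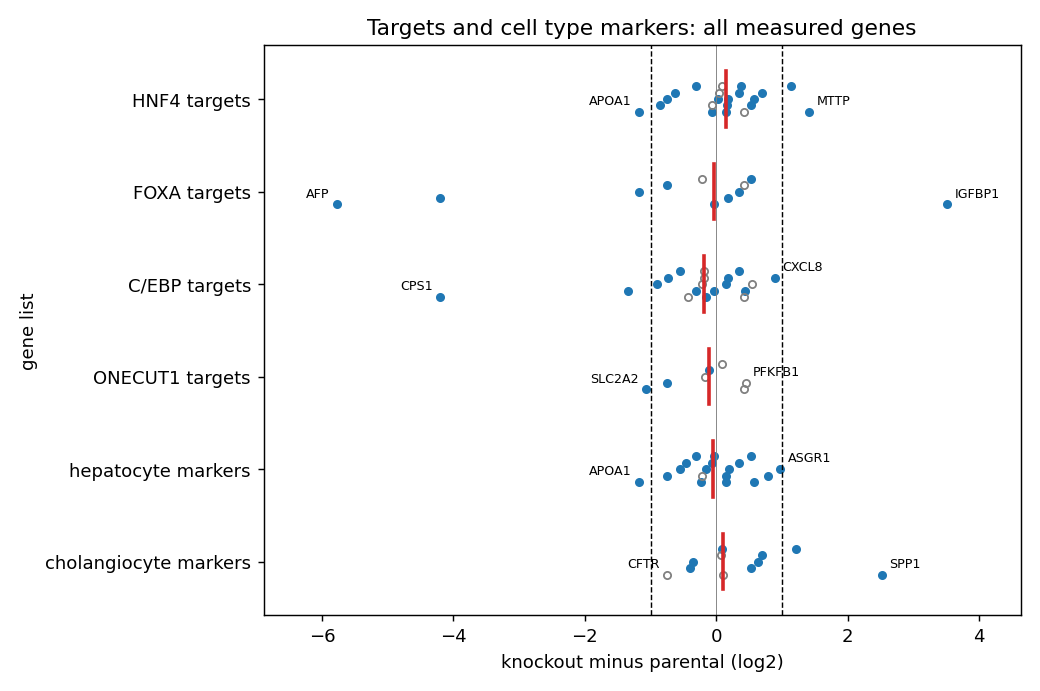
Difference, knockout minus parental in log2 (horizontal axis), of each measured gene in 4 lists of target genes and 2 lists of cell type markers (rows; symbols as filled points above and open points under the level filter, red bars at list medians, dashed lines at 2-fold). AFP at -5.77, CPS1 at -4.21 and IGFBP1 at 3.52 lie far outside, and the hepatocyte markers have a median of -0.05.

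PROX1 also marks lymphatic endothelium, so the markers of that tissue were read beside it. Of 8 such markers, 7 were under the level filter throughout, LYVE1, PDPN and FLT4 among them. RELN, a secreted matrix protein made by many tissues, was above it at 9.16 against 11.89 (-2.73). General endothelial markers lay under the filter in 6 of 8 cases, with EMCN at 4.47 against 5.01 and ERG at 5.59 against 5.33. Of 9 markers of gut, pancreas or other endoderm, 4 lay above the filter. None of the 4 was 2-fold apart, beside 12.6% of protein-coding genes above the filter. VIL1, the microvillus protein villin, stood at 12.59 against 13.44 (-0.85), SOX2 at -0.57 and PTF1A at 4.84 against 5.03. Of 9 fibroblast and stellate markers measured, 6 were lower, with a median of -0.09 and COL1A1 at -0.45. Their summed level of 12.81 against 9.83 followed 1 gene, the matrix proteoglycan gene LUM at 12.69 against 7.90 (4.79). Leukocyte markers had a median of 0.19 over 7 measured and a summed level of 12.70 against 11.15. That sum followed LYZ at 11.87 against 9.62 (2.25) and CD68 at 11.41 against 10.32 (1.09). CD79A stood at -1.03, and the leukocyte surface gene PTPRC lay under the filter at 4.72 against 4.76. The part of these markers in the values of the lineage factors was not tested either.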

How the data were processed

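Biotin-labelled total RNA was measured on an Affymetrix array, 1 per genotype. The table holds log2 expression values that the authors deposited, and the submitters' processing notes name RMA and Transcriptome Analysis Console without versions. RMA removes background, puts arrays on a common scale and joins probes into 1 value per cluster. Settings and genome build: not given in the sources used here. Base 2 is what RMA writes. The labels name a Human Transcriptome Array, but the number of clusters is not the usual one for it, so the array design is not settled. No detection calls were at hand, and scanner files were not used.

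Of 135750 clusters, 36176 had 1 symbol, 1119 had several and 98455 none in the platform annotation, and only the first were named. Each gene was taken from its cluster with the highest mean, giving 33616 genes, and differences and 2-fold counts were computed with pandas 2.3.3 on Python 3.11.15. Counting was tested on simulated data, with the standard deviation of differences of genes under the level filter (0.30). Above the filter that of the real differences was 0.70. The simulation thus checks the counting and not how firm calls near 2-fold are. RefSeq (GRCh38.p14) gave gene types, for 25516 of the named clusters through Entrez identifiers, and gene order. Genes named are the 7 measured factors, SOX4, the factors' nearest neighbours and nearest patterns, all listed antisense or divergent RNAs, and per list those above the filter with the 2 largest differences, the highest and the lowest, unless said otherwise. ALB, LYVE1, PDPN, FLT4, PTPRC, CEBPD and CEBPE were named outside this rule, after their values were seen. The members, lists, motifs and level bands were chosen with earlier results of these data known. Alternatives changed the cluster per gene, normalization, filter and fold.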

Additional observations from a re-analysis of the deposited data

How the results depend on the processing

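The difference of every one of the 7 factors kept its direction under averaging of clusters, the cluster with the largest parental value, quantile normalization, median-centred arrays and removal of the level trend. CEBPA ranged from -0.97 to -0.86 and never reached 2-fold, and the median of the factors ranged from -0.27 to -0.19. Each factor had 1 cluster, so both choices of cluster left its value as it was. At 1.5-fold, 1 factor (CEBPA) was lower and 0 were higher. The share of genes past the fold was 5.30% without the level filter and 26.7% at 1.5-fold. Over members above the level filter only, list medians were -0.18 for other FOX genes, -0.50 for the C/EBP network, 0.34 for cut and prospero paralogs, -0.75 for ONECUT1 targets, 0.59 for cholangiocyte, -2.73 for lymphatic (1 gene), -0.49 for gut and pancreas, -0.14 for endothelial and 0.34 for leukocyte markers. The filter takes the higher of both values, so some of these genes, such as SOX2 and EMCN, passed by the parental array only. Medians near 0 changed sign: that of other FOX genes was 0.02 after quantile normalization, 0.01 with median-centred arrays and 0.00 with the level trend removed, that of endothelial markers (-0.01 as deposited) was 0.03, 0.02 and 0.02, and that of FOXA targets was 0.00 with median-centred arrays and -0.09 after quantile normalization. Of 162 alternative values, 150 moved by less than 0.30 for single genes, 0.1 for medians or 1.5 times for counts. That count does not measure how firm the factors' differences are. The 6 factors other than CEBPA differed by at most 0.27, less than the 0.30 allowed. The values of all 7 under both choices of cluster could not move. No paired analysis was possible because each genotype had 1 array, and leaving out a replicate was not possible for the same reason. Signals near background had no detection call.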
